A study of Mus musculus with 36 samples.

Results

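Occupancy of the nucleosome remodelling and deacetylase (NuRD) complex, of ZFP296 and of SIN3A was examined around 8 genes that encode the enzymes and cofactors of DNA methylation and demethylation in the mouse. They were taken as Dnmt1, Uhrf1, Dnmt3a, Dnmt3b, Dnmt3l, Tet1, Tet2 and Tet3, out of 22367 protein-coding genes on chromosomes 1 to 19, X and Y of the GENCODE vM1 annotation of mm9. A ChIP-seq peak, an interval where precipitated DNA exceeds an input control, was assigned to a gene when its midpoint lay within 50 kb of the gene body. By this rule 287 of the 104813 peaks in 9 peak lists lay at the 8 genes, and merging those that overlapped left 136 regions.

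ChIP-seq of MBD3 and CHD4, a pair of NuRD subunits, was carried out in wild-type R1 embryonic stem cells (ESCs) with 2 lists per protein, and in neural progenitor cells (NPCs) derived from R1 ESCs in vitro with 1 list per protein. SIN3A, a subunit of a different deacetylase complex, was precipitated from wild-type R1 ESCs once without added spike-in chromatin and once with it, 1 list each. GFP-tagged ZFP296, a zinc finger protein, was precipitated with a GFP antibody from a line labelled ZFP296-BAC R1 ESCs, whereas the methods of the study describe a GFP-tagged construct in KH2 ESCs. All ESCs were kept in serum and LIF with the pair of kinase inhibitors known as 2i, and NPCs in NPC medium, so cell type and medium cannot be told apart. Lists held from 2304 peaks (NPC MBD3) to 29974 peaks (ESC CHD4 replicate 2), and all 29974 peak names of the latter name a Zfp219 BAC, while the sample is labelled as wild type. No read counts came with the peaks and the NPC and ZFP296 lists have no replicate, so occupancy is described without a test, and the share of all 22367 genes that meet the same criterion is given as background. The absence of a peak means that none passed the authors' threshold, not that the protein was absent.

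DNMT1 copies methylation onto the new DNA strand after replication, and UHRF1 brings it to hemimethylated CpG sites. DNMT3A and DNMT3B set methylation at unmethylated CpGs, and DNMT3L, which has no catalytic activity of its own, stimulates them. TET1, TET2 and TET3 oxidise 5-methylcytosine, which opens a route to its removal. In ESCs with 2i the genome is known to be lowly methylated, TET1 and TET2 are the main TET proteins, and TET3 is known mainly from the oocyte and from neural cells. DNMT3L is typical of germ cells and ESCs.

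Sequences of 6 occupied sites are shown first, chosen for the strongest MBD3 and GFP-ZFP296 peaks and for MBD3 sites described further on, and they differ in CpG content. Each is the central 200 bp of a peak on the plus strand of mm9, with CG dinucleotides in capitals. The first is the strongest ESC MBD3 replicate 1 peak at the 8 genes that was also found in replicate 2, in an intron of Tet2 (chr3:133187848-133188047, value 20.5), and it holds 1 CpG. The next is the strongest such peak of replicate 2, in the transcription start site (TSS) window of Tet1 (chr10:62359772-62359971, value 20.4), with 2 CpGs. The strongest GFP-ZFP296 peak at the 8 genes also lay at Tet1 (chr10:62358306-62358505, value 18.4) and holds 3 CpGs. The MBD3 peak in an intron of Dnmt3l (chr10:77511005-77511204, value 13.3 in replicate 1) has 3 CpGs as well. The NPC MBD3 peaks at the starts of Uhrf1 (chr17:56443172-56443371, value 11.1) and Tet2 (chr3:133207610-133207809, value 20.3) hold 16 and 23 CpGs. ESC MBD3 peaks overlapped both of them, in both replicates at Uhrf1 and in replicate 1 at Tet2. The NPC sites lay at 0.53 and −0.36 kb from the start of the gene, and the ESC sites at 2.0 to 19.41 kb. The Tet1 sites lay in a TSS window, as the NPC sites did. The printed ESC and NPC sites thus differ in distance from the start as well as in cell type. The values are the authors' own, on a −log10 scale, and their size was not compared between lists.
Tet2 intron, ESC MBD3 replicate 1: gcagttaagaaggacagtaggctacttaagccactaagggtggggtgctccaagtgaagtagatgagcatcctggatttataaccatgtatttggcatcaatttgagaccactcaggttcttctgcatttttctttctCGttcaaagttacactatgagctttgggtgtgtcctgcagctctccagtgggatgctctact
Tet1 TSS window, ESC MBD3 replicate 2: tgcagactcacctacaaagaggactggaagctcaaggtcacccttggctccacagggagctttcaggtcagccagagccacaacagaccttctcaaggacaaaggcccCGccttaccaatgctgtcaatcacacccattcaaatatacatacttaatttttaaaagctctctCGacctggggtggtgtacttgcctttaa
Tet1 TSS window, GFP-ZFP296: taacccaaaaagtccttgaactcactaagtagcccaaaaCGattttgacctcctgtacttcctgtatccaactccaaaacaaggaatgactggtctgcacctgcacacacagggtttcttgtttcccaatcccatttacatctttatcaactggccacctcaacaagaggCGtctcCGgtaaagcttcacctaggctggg
Dnmt3l intron, ESC MBD3 replicate 1: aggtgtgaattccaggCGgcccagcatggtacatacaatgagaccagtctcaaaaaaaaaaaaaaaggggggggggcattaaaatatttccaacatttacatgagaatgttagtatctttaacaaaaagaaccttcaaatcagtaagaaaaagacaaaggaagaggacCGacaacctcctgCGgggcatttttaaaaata
Uhrf1 TSS window, NPC MBD3: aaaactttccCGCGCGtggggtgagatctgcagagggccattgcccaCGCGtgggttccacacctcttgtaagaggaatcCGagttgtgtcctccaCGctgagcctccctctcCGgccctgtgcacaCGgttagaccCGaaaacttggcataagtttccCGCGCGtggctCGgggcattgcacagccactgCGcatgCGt
Tet2 TSS window, NPC MBD3: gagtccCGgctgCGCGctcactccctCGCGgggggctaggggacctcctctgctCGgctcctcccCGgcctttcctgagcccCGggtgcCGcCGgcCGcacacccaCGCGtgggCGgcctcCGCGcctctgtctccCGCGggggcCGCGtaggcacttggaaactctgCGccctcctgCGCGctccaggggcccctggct

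Most of the 8 genes had a peak of each protein nearby. MBD3 peaks lay at 7 genes in ESC replicate 1 (all but Dnmt3b) and at 6 in replicate 2 (all but Dnmt1 and Tet3), where 15.8% and 33.1% of all genes had one. Uhrf1, Dnmt3a, Dnmt3l, Tet1 and Tet2 had a peak in both MBD3 lists, 5 of 8 genes against a background of 12.8%. An overlapping MBD3 site in both lists was found at 4 of them, all but Dnmt3a, against 10.1% of all genes.

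CHD4 peaks were found at all 8 genes in both ESC lists. The background was 43.0% in replicate 1 and 67.7% in replicate 2, and 42.1% in both lists. Each of the 8 genes also had a CHD4 site that overlapped between the lists, against 36.8% of all genes. When every list was cut to its 2304 highest values, the length of the shortest list, 1 of the 8 genes (Tet1) kept CHD4 in both lists against 9.89% of all genes, so this count depends on the length of the CHD4 lists.

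SIN3A peaks likewise lay at all 8 genes, with backgrounds of 65.1% without spike-in, 59.2% with spike-in, 56.7% in both preparations and 53.5% for an overlapping site. GFP-ZFP296 peaks lay at 5 genes (Uhrf1, Dnmt3a, Dnmt3b, Tet1 and Tet2) against 21.9%. With equal list sizes 2 genes kept SIN3A in both preparations (background 16.2%) and 3 kept GFP-ZFP296 (17.5%).

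In NPCs, MBD3 peaks lay at 5 genes (Dnmt1, Uhrf1, Dnmt3b, Tet2 and Tet3), against 15.7% of all genes. CHD4 peaks lay at 7, all but Dnmt3l, against 57.9%. Taking both cell types together, Dnmt3a, Dnmt3l and Tet1 had MBD3 in both ESC lists and none in NPCs, a state that 9.04% of all genes shared. The reverse state, an NPC MBD3 peak and none in either ESC list, was found at 0 of the 8 genes and at 6.81% of all genes. For CHD4 the ESC-side state was found at Dnmt3l (background 9.14%) and the NPC-side state at 0 genes (background 8.06%). The count of 0 for MBD3 needed both ESC lists, and leaving a list out can only keep or raise it. Without replicate 1 it was 2 genes (Dnmt1 and Tet3, background 7.53%) and without replicate 2 it was 1 (Dnmt3b, 11.2%). With a 10 kb window, CHD4 was on the ESC side at 3 genes (Uhrf1, Dnmt3l and Tet2, background 8.96%) and on the NPC side at Dnmt1 (9.2%). Dnmt3l lost the ESC-side state for CHD4 under 2 alternatives. With values of at least 10 the genes were Dnmt3b and Tet2 (8.11%), and with equal list sizes the gene was Tet1 (6.3%).

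**Figure D1:**
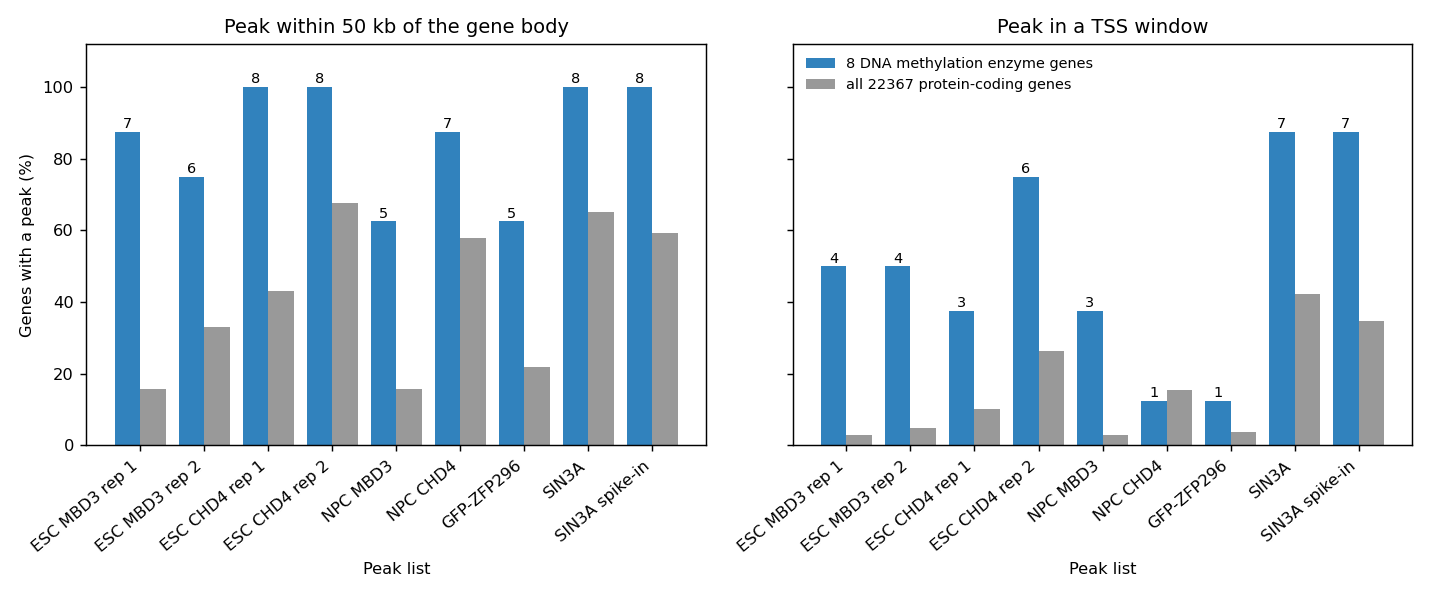
Percent of genes with at least 1 peak in each of the 9 lists, within 50 kb of the gene body (left) or in a TSS window (right), for the 8 DNA methylation enzyme genes (blue, with the number of genes above each bar) and for all 22367 protein-coding genes (grey). Within 50 kb the 8 genes lie above the background in every list, from 5 genes against 15.7% in NPC MBD3 to 8 genes against 67.7% in ESC CHD4 replicate 2, and in TSS windows they do so in every list but NPC CHD4 (1 gene against 15.4%).

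Gene length enters these counts, since the gene bodies of the 8 genes measure 20.2 to 108 kb and the median of all genes is 15.4 kb (quartiles 4.7 and 42.5 kb). Peaks were therefore also counted per 100 kb of window. MBD3 peaks at the 8 genes then numbered 1.16 and 2.09 per 100 kb in the ESC replicates, against 0.165 and 0.452 around all genes. CHD4 gave 2.79 and 6.13 against 0.919 and 2.29, and GFP-ZFP296 gave 0.776 against 0.239. The 8 genes were the denser in each of these lists. In NPCs the densities were 0.388 against 0.145 for MBD3 and 2.41 against 1.21 for CHD4, and the SIN3A lists gave 3.72 against 1.62 and 2.79 against 1.13.

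Promoters were counted separately, in a TSS window that runs from 1 kb before to 5 kb after any annotated start of the gene. MBD3 had a peak there at Uhrf1, Dnmt3a, Tet1 and Tet2 in ESC replicate 1 (background 2.8%) and at Uhrf1, Dnmt3a, Dnmt3l and Tet1 in replicate 2 (4.84%). CHD4 had one at Uhrf1, Dnmt3a and Tet1 in replicate 1 (10.2%) and at 6 genes in replicate 2 (26.4%). Uhrf1, Dnmt3a and Tet1 thus had a peak in all 4 ESC lists with the windows of all their starts pooled. Genes with many starts have more sequence in these windows, and the background was not matched for this. Starts of Dnmt3a run from 0.52 to 100.81 kb along the gene. At Dnmt3a the MBD3 peaks lay at different starts, at 1.7 kb in replicate 1 and at 79.34 and 85.51 kb in replicate 2. The MBD3 peak in the Dnmt3l window (6.58, at 1.59 kb) had its nearest start at Aire. With 1 kb on each side of a start, Dnmt3l no longer had an MBD3 peak. In NPCs, MBD3 was found in the TSS windows of Uhrf1, Dnmt3b and Tet2 (2.81%) and CHD4 in that of Dnmt3a (15.4%). GFP-ZFP296 was found in the TSS window of Tet1 (3.65%), and SIN3A in those of 7 genes, all but Dnmt3l, in both preparations (42.2% and 34.6%).

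**Figure D2:**
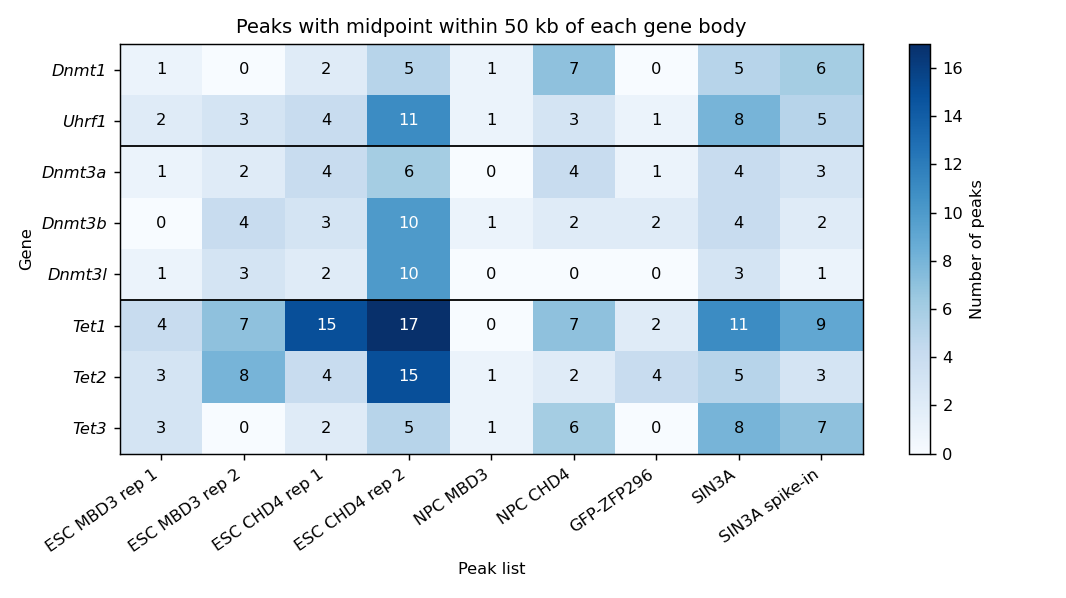
Number of peaks with their midpoint within 50 kb of each gene body, for the 8 genes (rows, with maintenance, de novo and oxidation genes separated by black lines) and the 9 lists (columns). Tet1 holds the highest count in both ESC CHD4 lists (15 and 17), Tet2 in ESC MBD3 replicate 2 (8), and Dnmt3l has 0 in both NPC lists and in GFP-ZFP296.

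Of the 287 peaks, 73 lay in a TSS window of the gene they were assigned to, 83 in one of its introns and 54 between genes. Another 68 lay in TSS windows of neighbouring genes. The TSS nearest to the peak was that of the assigned gene for 183 of 287 peaks, a share that ran from all 45 peaks at Tet2 to 5 of 28 at Dnmt3b. Of the 136 regions, 65 were held by 1 list, 54 by 2 or 3 lists and 17 by at least 4, with 7 lists as the most.

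Tet1, which encodes a principal TET dioxygenase of ESCs, had the largest number of peaks over the 9 lists, 72 of 287 (chromosome 10, 62267318 to 62361866, minus strand). It had 4 and 7 MBD3 peaks in the ESC replicates, 15 and 17 CHD4 peaks, 2 GFP-ZFP296 peaks, and 11 and 9 SIN3A peaks without and with spike-in. NPCs gave 0 MBD3 and 7 CHD4 peaks. Among all genes, 0.756% had as many MBD3 peaks in replicate 1 and 0.68% in replicate 2, and 0.501% and 2.06% had as many CHD4 peaks. Per 100 kb of window, 1.51% to 6.17% of genes were as dense in these 4 lists. By that measure Tet1 led the 8 genes in MBD3 replicate 1, CHD4 replicate 1 and SIN3A with spike-in, and another of them was denser in each of the other 6 lists. In NPC CHD4 the share with as many peaks was 5.11%.

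The ESC peaks of Tet1 recurred at 4 regions near the 5′ end of the gene. At 0.86 kb from the start of the gene, both MBD3 lists, both CHD4 lists and SIN3A with spike-in had a peak (9.95 and 4.83, 5.62 and 20.2, and 3.78). The region at 1.96 kb, whose sequence is printed above, was held by both lists of MBD3 (19.8 and 20.4), CHD4 (23.6 and 16.3) and SIN3A (7.49 and 5.29). Its CHD4 replicate 1 peak ranked within the top 2.31% of that list. The region at 3.47 kb, the second Tet1 sequence above, had MBD3 values of 12.7 and 11.8, CHD4 values of 11.5 and 19.5, a GFP-ZFP296 value of 18.4 and a SIN3A value of 15.4. At 5.97 kb, in an intron, all 7 ESC lists had a peak, with values of 11.8 and 7.25 for MBD3, 11.2 and 10.7 for CHD4, 16.6 and 10.9 for SIN3A, and 7.01 for GFP-ZFP296. NPC peaks lay at none of these 4 regions.

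NPC CHD4 occupied Tet1 further downstream. Of its 7 peaks, 6 lay in introns from 13.26 to 51.56 kb after the start, with values between 4.75 and 9.84, and the seventh at the start of the neighbouring gene Slc25a16. At 36.52 and 46.85 kb they overlapped ESC CHD4 replicate 2 peaks (8.54 and 8.35). Upstream of the gene, at −3.91 kb, a region held by MBD3 replicate 2 and both CHD4 replicates (values 7.42 to 7.77) contained the POU5F1 octamer string ATGCAAAT.

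Tet2 is the other TET gene active in ESCs (chromosome 3, 133126643 to 133207354, minus strand), and no other protein-coding start lies in its window. MBD3 peaks numbered 3 and 8 in the ESC replicates, CHD4 peaks 4 and 15, GFP-ZFP296 peaks 4, and SIN3A peaks 5 and 3. In NPCs it had 1 MBD3 peak and 2 CHD4 peaks. The 8 MBD3 peaks of replicate 2 were matched by 0.425% of all genes and the 4 GFP-ZFP296 peaks by 1.17%, while the 4 CHD4 peaks of replicate 1 were matched by 12.1%.

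Occupancy of Tet2 in ESCs was concentrated in introns. The region around 19.43 kb was the second one held by all 7 ESC lists, with MBD3 values of 20.5 in replicate 1 and, for 2 peaks in replicate 2, 11.9 and 9.93. CHD4 had values of 20.7 and 15.6 there, SIN3A 8.46 and 4.51, and GFP-ZFP296 4.12. The GFP-ZFP296 peak and the SIN3A peak with spike-in were among the weakest of their lists, ranked at 96.1% and 94.2% from the top. The strongest GFP-ZFP296 peak of Tet2 (17.9) lay at 26.04 kb together with MBD3 replicate 2 (8.94) and CHD4 replicate 2 (8.42). At 37.7 kb GFP-ZFP296 (10.8) shared a region with SIN3A without spike-in (16.8), CHD4 replicate 2 (9.02) and MBD3 replicate 2 (7.24).

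The promoter of Tet2 differed from these introns in the lists that held it. SIN3A without spike-in (31.3), SIN3A with spike-in (11.2 and 11.8), MBD3 replicate 1 (7.02) and NPC MBD3 (20.3) had peaks around the start, and neither ESC CHD4 list had a peak in the TSS window. The NPC MBD3 peak there had the highest value of the 5 at the 8 genes and ranked within the top 3.78% of its list. No NPC CHD4 peak overlapped it, and the NPC CHD4 peaks of Tet2 lay at −17.92 and −18.35 kb (7.88 and 7.3). Chromosome 3 held 2.01 times its share of genes among NPC MBD3 peaks and 1.72 times among NPC CHD4 peaks, and the part of this in the Tet2 result was not tested.

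**Figure D3:**
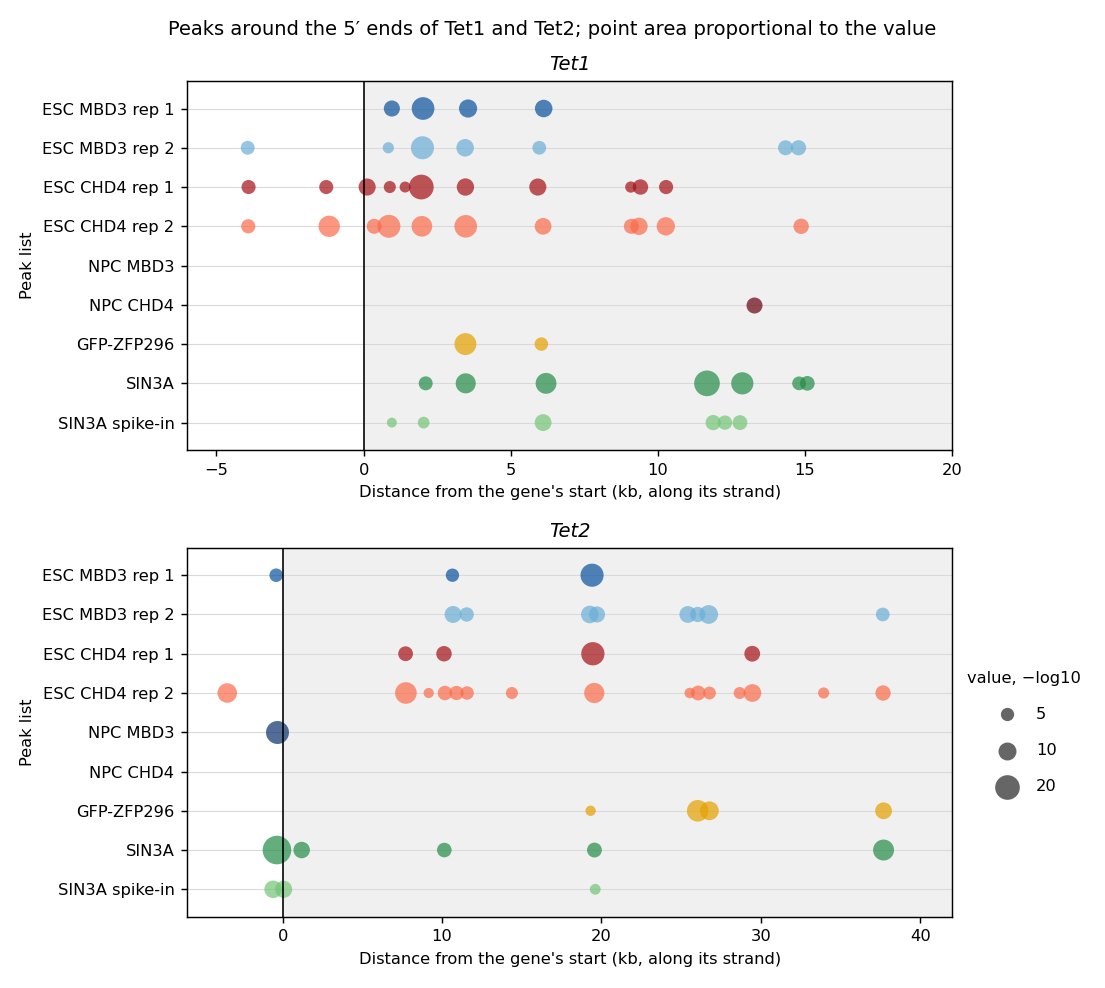
Peaks of the 9 lists (rows) against distance from the start of Tet1 (top) and Tet2 (bottom) in kb along the strand of the gene; each point is a peak midpoint, its area is proportional to the authors' −log10 value, and grey marks the gene body. ESC peaks line up in columns at 0.86, 1.96, 3.47 and 5.97 kb in Tet1 and at 19.43 kb in Tet2, where no NPC peak was called, and the NPC MBD3 peak of Tet2 (20.3) stands at its start.

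Tet3 (chromosome 6, 83312367 to 83391672, minus strand) had its ESC MBD3 peaks in a single replicate. MBD3 peaks numbered 3 in ESC replicate 1 and 0 in replicate 2, and CHD4 peaks 2 and 5. SIN3A gave 8 and 7 peaks, GFP-ZFP296 none, and NPCs 1 MBD3 and 6 CHD4 peaks. Chromosome 6 held 8.86% of the autosomal peaks of MBD3 replicate 1 and 3.93% of those of replicate 2, a ratio of 2.25. For ESC CHD4 it held 8.68% and 5.61% in replicates 1 and 2. It also held 1.68 times its share of genes among NPC MBD3 peaks and 1.41 times among NPC CHD4 peaks. The part of these shares in the ESC and NPC counts at Tet3 was not tested. Of the ESC MBD3 peaks at Tet3, 1 lay in an intron at 19.78 kb (17.6) with CHD4 replicate 1 (12.3) and SIN3A without spike-in (10.3).

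Upstream of Tet3, a region at −14.47 kb was held by 5 lists, namely MBD3 replicate 1 (13.3), CHD4 replicate 2, NPC CHD4 (5.68) and both SIN3A lists. The start itself was occupied by both SIN3A lists (8.99 and 8.66) and CHD4 replicate 2 (7.14). NPC CHD4 had a peak of 19.1 at −1.14 kb that no other list held, and one of 26.7 at −37.23 kb, nearest to Dguok, that overlapped the NPC MBD3 peak (15.2). The regions held by 4 and 5 lists beyond the 3′ end of Tet3 lay at the starts of Mthfd2 and Bola3.

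Dnmt3a and Dnmt3b, the catalytic de novo enzymes, differed in where their peaks lay. Dnmt3a (chromosome 12, 3806007 to 3914443, plus strand) had 1 and 2 MBD3 peaks, 4 and 6 CHD4 peaks, 1 GFP-ZFP296 peak and 4 and 3 SIN3A peaks in ESCs. NPCs gave 0 MBD3 and 4 CHD4 peaks. For 24 of its 25 peaks the nearest start was one of its own, and 3 of its regions were held by at least 4 lists. The region at 0.54 kb carried both CHD4 replicates (9.63 and 6.99), both SIN3A lists (10.7 and 13.2) and NPC CHD4 (10.5). The region at 1.79 kb carried MBD3 replicate 1 (6.47), CHD4 (7.7 and 21.4) and NPC CHD4 (6.16).

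The remaining recurrent region of Dnmt3a lay deep in the gene, at 85.46 kb. Annotated internal starts lie next to it, at 85.72 and 85.74 kb, and the gene is known to produce a shorter isoform, DNMT3A2, from an internal promoter that is active in ESCs. MBD3 replicate 2 (6.35), CHD4 (5.21 and 9.94), SIN3A without spike-in (9.55) and NPC CHD4 (9.66) had a peak there. NPC CHD4 and both ESC CHD4 lists thus had a peak in all 3 recurrent regions of Dnmt3a. The MBD3 peaks of the ESC replicates did not overlap each other, and the GFP-ZFP296 peak (5.89) lay in an exon of the neighbouring gene Pomc.

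Dnmt3b (chromosome 2, 153475186 to 153513466, plus strand) had 0 and 4 MBD3 peaks, 3 and 10 CHD4 peaks, 2 GFP-ZFP296 peaks and 4 and 2 SIN3A peaks in ESCs, and 1 MBD3 and 2 CHD4 peaks in NPCs. No peak of the 9 lists lay beyond 0.86 kb into the gene, and both regions held by at least 4 lists lay upstream, in Commd7. At −16.98 kb, in the TSS window of Commd7, both CHD4 replicates and both SIN3A lists had peaks. At −26.75 kb, across an exon and an intron of Commd7, GFP-ZFP296 (9.93) met MBD3 replicate 2 (7.94), CHD4 replicate 2 and SIN3A without spike-in (8.46). A second GFP-ZFP296 peak (9.11) lay at −36.68 kb with MBD3 replicate 2 (6.82) and CHD4 replicate 2 (10.7). At its own start Dnmt3b had both SIN3A lists (12.3 and 11.1) and NPC MBD3 (6.78), and CHD4 replicate 2 had peaks at −0.37 and 0.86 kb (4.24 and 6.02).

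Dnmt3l (chromosome 10, 77504692 to 77526367, plus strand) had peaks in ESC lists alone. MBD3 peaks numbered 1 and 3, CHD4 peaks 2 and 10, and SIN3A peaks 3 and 1, against 0 for GFP-ZFP296, NPC MBD3 and NPC CHD4. It was the single gene of the 8 with no peak of either protein in NPCs. Its recurrent region lay in an intron at 6.43 kb, where MBD3 (13.3 and 12.1) and CHD4 (8.11 and 15.7) were found in both replicates. The SIN3A peaks of this window lay elsewhere, 3 of them at the start of Pfkl and 1 at 27.73 kb, at the start of Icosl.

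Uhrf1, the partner of DNMT1 in maintenance (chromosome 17, 56442744 to 56462909, plus strand), had 2 and 3 MBD3 peaks, 4 and 11 CHD4 peaks, 1 GFP-ZFP296 peak and 8 and 5 SIN3A peaks in ESCs. NPCs gave 1 MBD3 and 3 CHD4 peaks. Its start carried MBD3 in both cell types. A region at 0.6 kb, the CpG-rich sequence above, held MBD3 in both ESC replicates (6.85 and 17.4) and in NPCs (11.1), together with SIN3A (11.5 and 9.79). Of the 5 NPC MBD3 peaks at the 8 genes, this one overlapped both ESC MBD3 lists and that of Tet2 overlapped replicate 1. CHD4 lay nearby in ESCs, at −0.41 kb in replicate 1 (11.3) and −0.47 kb in replicate 2 (6.08), and not in NPCs. NPC CHD4 had a peak of 29.6 at −37.32 kb, nearest to Fem1a, and the strongest CHD4 replicate 2 peak assigned to any of the 8 genes (25.7) lay at −22.07 kb in an intron of Plin3.

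Dnmt1 (chromosome 9, 20711650 to 20757317, minus strand) had 1 and 0 MBD3 peaks, 2 and 5 CHD4 peaks, no GFP-ZFP296 peak and 5 and 6 SIN3A peaks in ESCs, and 1 MBD3 and 7 CHD4 peaks in NPCs. None of its 16 regions was held by at least 4 lists, and its start carried SIN3A peaks alone. For 8 of 27 peaks the nearest start was that of Dnmt1, and the window holds starts of 6 other genes. Inside or directly upstream of the gene, NPC CHD4 had 4 peaks, at 9.32, 7.96, −8.86 and −9.32 kb (values 9.4 to 12.2), where no other list had one. The strongest NPC CHD4 peak at the 8 genes (30.5) was assigned to Dnmt1 but lay at the start of A230050P20Rik, and the MBD3 peak of NPCs (11.1) lay with CHD4 (13.8) at the start of S1pr2.

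**Figure D4:**
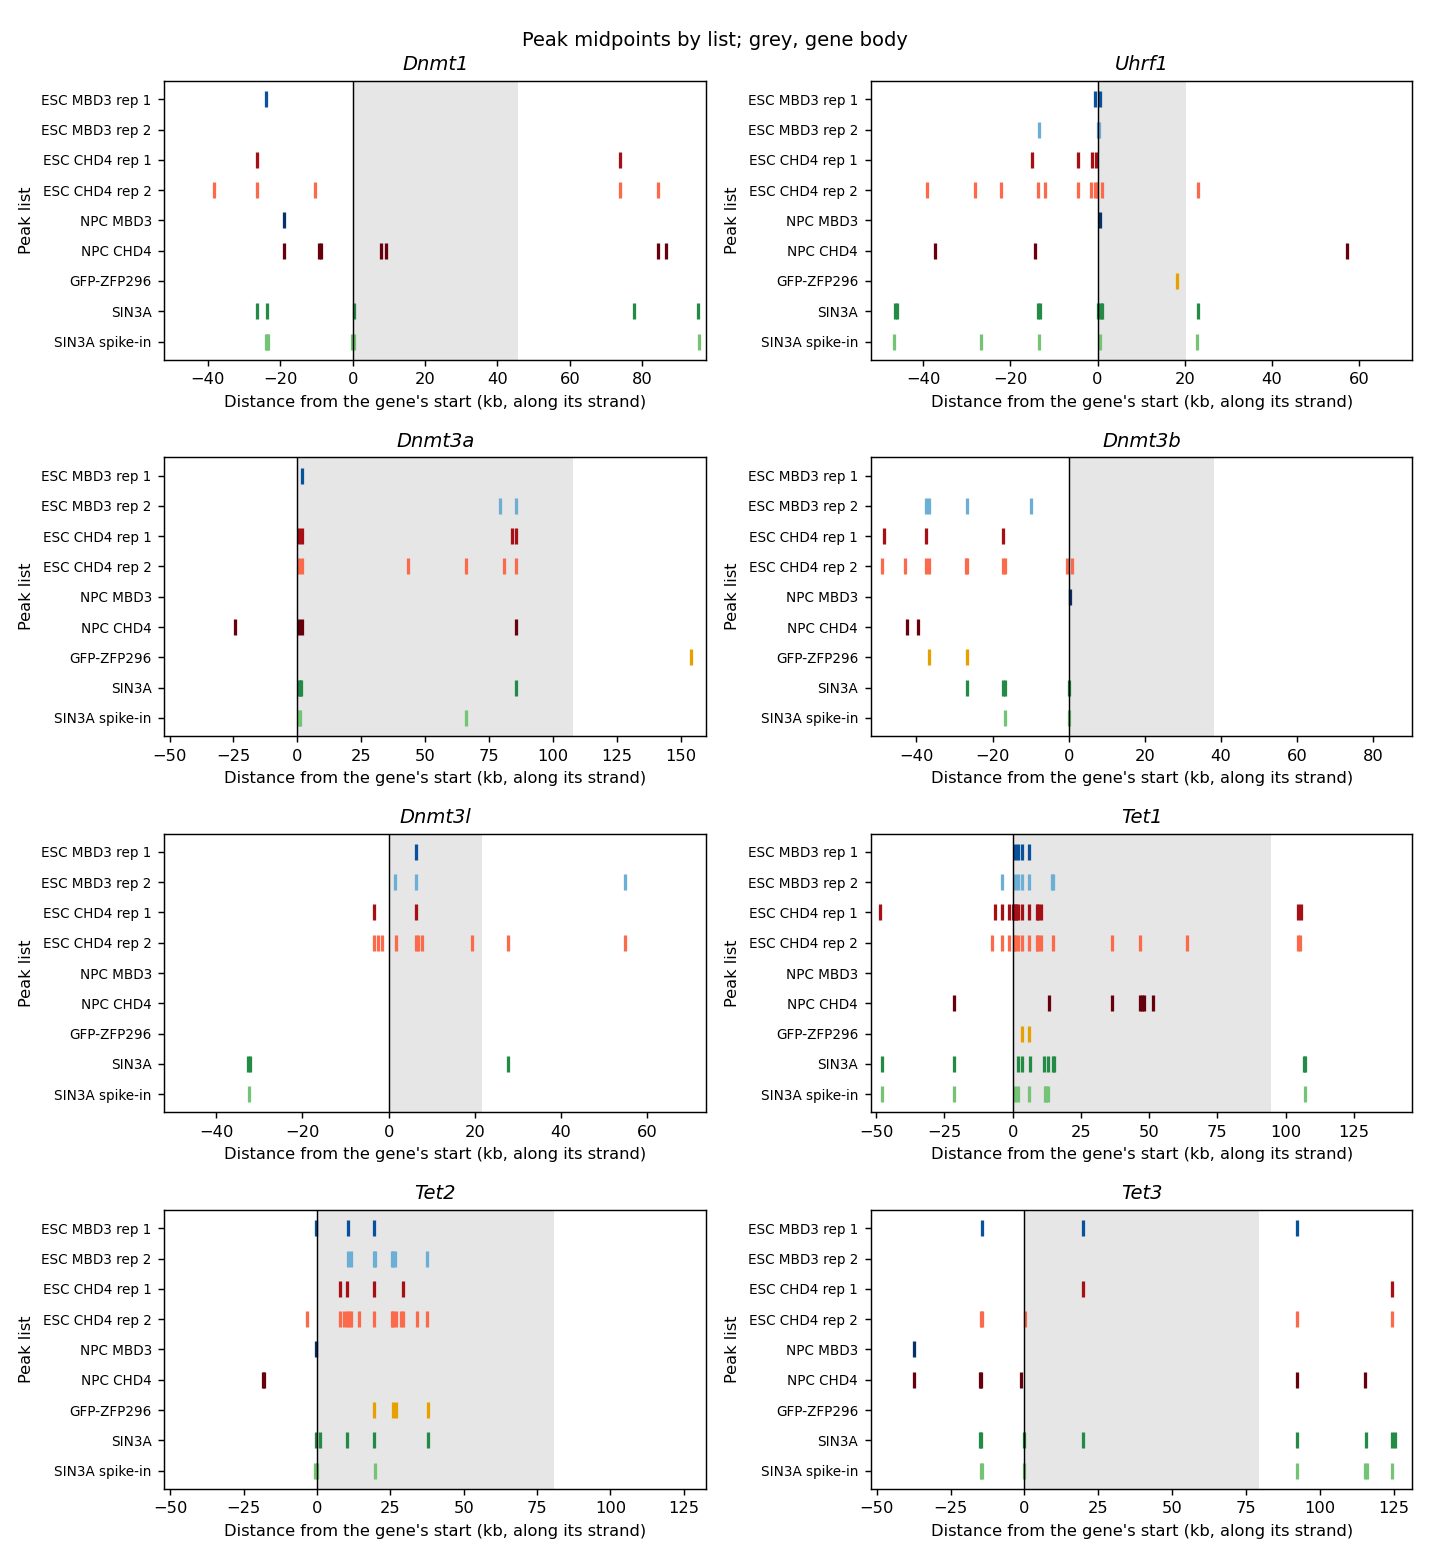
Peak midpoints of the 9 lists (rows) against distance from the start of each of the 8 genes in kb along its strand, with the gene body in grey. Peaks of Tet2 fall in the 5′ part of the gene body and upstream of its start. Those of Dnmt3b stop near its start and spread upstream, and Dnmt3l has marks in ESC lists alone.

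The proteins met at the 8 genes to different degrees. Of the 15 MBD3 peaks of ESC replicate 1 at these genes, 8 overlapped replicate 2 (53.3%, and 64.3% of the whole list), and 11 overlapped a CHD4 peak of either replicate (73.3%, and 89.6% of the list). In replicate 2, 21 of 27 MBD3 peaks overlapped CHD4 (77.8% and 75.2%). GFP-ZFP296 shared 8 of its 10 peaks with MBD3 of either replicate (52.2% of the whole list) and 8 with CHD4 of either replicate (69.4% of the list). These shared peaks all lay at Tet1, Tet2 and Dnmt3b. At Dnmt3b, and at 37.7, 26.77 and 26.04 kb in Tet2, only replicate 2 of MBD3 and of CHD4 had the site. A SIN3A peak of either preparation overlapped 5 of the 10 GFP-ZFP296 peaks, and 43.3% of the list. In NPCs 2 of 5 MBD3 peaks overlapped CHD4, against 84.9% of the list. The MBD3 peaks at the starts of Uhrf1, Dnmt3b and Tet2 had no NPC CHD4 peak over them. Between cell types, 8 of 31 NPC CHD4 peaks overlapped an ESC CHD4 peak (25.8% and 15.6%), and 2 of 5 NPC MBD3 peaks an ESC MBD3 peak (10.1% of the list).

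The values of the peaks at the 8 genes were near those of their lists. Medians were 9.95 and 7.94 for MBD3 in the ESC replicates (list medians 7.93 and 8.28) and 9.01 and 8.42 for CHD4 (8.05 and 8.63). NPC MBD3 gave 11.1 over 5 peaks against 8.62, and NPC CHD4 9.4 against 9.06. For GFP-ZFP296 the median was 9.52 against 8.43, and for SIN3A 12.1 and 8.67 against 11.8 and 8.66. The highest SIN3A value with spike-in was 22.0, in the Tet1 window at the start of Slc25a16. The highest SIN3A value without spike-in was 50.9, at an intergenic peak in the Dnmt1 window whose nearest start was that of A230050P20Rik.

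**Figure D5:**
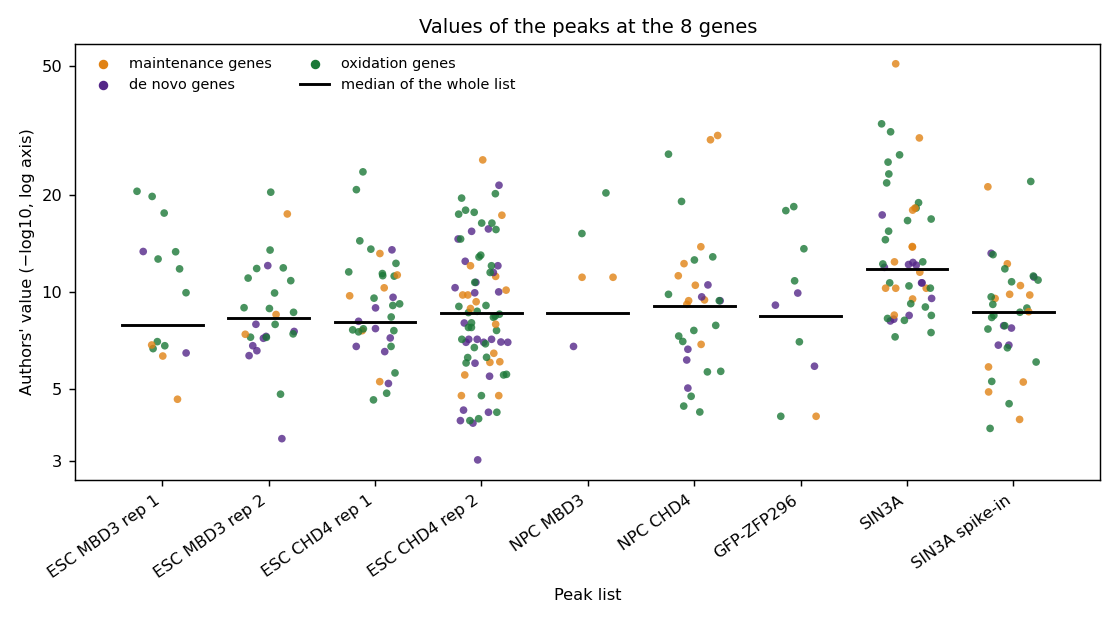
Authors' −log10 value (log axis) of every peak at the 8 genes in the 9 lists, coloured by the role of the gene, with the median of the whole list as a black line. Points lie on both sides of the line in every list, and the 3 highest ESC MBD3 replicate 1 values (17.6 to 20.5) belong to the oxidation genes. Tet1, Tet2 and Tet3 also hold most points of that list (4, 3 and 3 of 15), and Tet3 has 0 in replicate 2.

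The CpG content of the peaks at these genes was also measured. CpG observed over expected in the central 200 bp had a median of 0.32 and 0.24 at the MBD3 peaks of the ESC replicates and of 0.168 and 0.261 at the CHD4 peaks (list medians 0.233, 0.19, 0.24 and 0.265). GFP-ZFP296 peaks had 0.223 (list median 0.234). SIN3A peaks had medians of 0.686 and 0.772 (list medians 0.781 and 0.833). The 5 NPC MBD3 peaks had a median of 0.801 against 0.27 for their list, and 3 of the 5 lay in the TSS windows of Uhrf1, Dnmt3b and Tet2. NPC CHD4 had 0.299 against 0.218.

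Short strings were looked for on either strand of these 200 bp. The AP-1 string TGAGTCA lay under 9 of 31 NPC CHD4 peaks at the 8 genes (29.0%) and under 42.2% of the whole list. It lay under 0 of 5 NPC MBD3 peaks (47.5% of the list), and under 2 of 36 and 6 of 79 ESC CHD4 peaks (5.56% and 7.59%, against 4.56% and 4.68%). Of the 9 peaks, 3 belonged to Dnmt1, 2 to Tet1, 2 to Tet3, and 1 each to Uhrf1 and Dnmt3b. The octamer ATGCAAAT was found under 2 of 27 MBD3 replicate 2 peaks (7.41% and 5.0% of the list), at Tet1 and Dnmt3l, and the SOX2 string CCATTGT under 1 (3.7% and 6.3%). The telomere unit TTAGGG was found under 1 of 15 and 2 of 27 MBD3 peaks (6.67% and 7.41%, against 8.8% and 8.91%) and under 0 of 10 GFP-ZFP296 peaks (10.3% of the list). A match describes the letters and not a bound site.
The NPC CHD4 peaks with the highest values that held the AP-1 string are shown with it in capitals, in the orientation found on the plus strand. They lay at −37.23 kb (chr6:83428799-83428998) and −1.14 kb (chr6:83392709-83392908) from Tet3 and in an intron of Dnmt1 at 7.96 kb (chr9:20749263-20749462), and the first also held the SOX2 string. The peak at −1.14 kb, labelled promoter-proximal below, lay between genes, just outside the TSS window.
Tet3 upstream, NPC CHD4 with NPC MBD3: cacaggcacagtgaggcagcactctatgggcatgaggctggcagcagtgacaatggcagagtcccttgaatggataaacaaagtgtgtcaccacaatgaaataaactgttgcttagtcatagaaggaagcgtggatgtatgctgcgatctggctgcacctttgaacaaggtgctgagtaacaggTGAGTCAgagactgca
Tet3 promoter-proximal, NPC CHD4: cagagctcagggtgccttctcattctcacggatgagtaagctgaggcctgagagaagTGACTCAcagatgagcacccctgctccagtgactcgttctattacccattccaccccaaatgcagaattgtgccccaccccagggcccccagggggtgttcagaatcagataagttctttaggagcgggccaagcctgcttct
Dnmt1 intron, NPC CHD4: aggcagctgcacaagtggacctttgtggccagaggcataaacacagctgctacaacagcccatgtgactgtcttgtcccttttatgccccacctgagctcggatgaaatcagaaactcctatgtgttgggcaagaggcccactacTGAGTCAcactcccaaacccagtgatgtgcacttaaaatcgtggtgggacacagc

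Other genes of the pathway were counted by the same rule. Among 32 genes for readers of methylated DNA, base excision and deamination, partners of the methylation enzymes and supply of the methyl donor, MBD3 peaks lay at 10 and 14 in the ESC replicates (15.8% and 33.1% of all genes) and CHD4 peaks at 20 and 30 (43.0% and 67.7%). NPC MBD3 lay at 11 (15.7%) and NPC CHD4 at 25 (57.9%). GFP-ZFP296 lay at 11 (21.9%), and SIN3A at 29 and 25 (65.1% and 59.2%). An overlapping MBD3 site in both ESC lists was found at 7 of the 32, against 10.1% of all genes: Apobec1, Gadd45b, Ehmt2, Zfp57, Dppa3, Prdm14 and Cxxc5. They include Prdm14, a repressor of the de novo enzymes in ESCs, and Dppa3, which protects against TET3-dependent oxidation in the zygote. Such a site can lie nearer to the start of another gene, and windows of neighbouring genes can share it. Neither was examined for the 32 genes. Of the 6 readers counted (Mbd1, Mbd2, Mbd4, Zbtb4, Zbtb33 and Zbtb38), 0 and 2 had an MBD3 peak in the ESC replicates, against 15.8% and 33.1% of all genes. NPC MBD3 peaks were found at Tdg, Gadd45a, Gadd45b and Gadd45g, 4 of the 9 excision and deamination genes, against 15.7% of all genes. Groups this small were not tested.

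For each of the 8 genes, the protein-coding gene at least 1 Mb away with the most similar set of 9 counts was sought by the Euclidean distance of their square roots. Tet3 was nearest to Dnmt1 (distance 0.982), with 6 and 7 NPC CHD4 peaks and 0 MBD3 replicate 2 peaks at each. Dnmt1 itself was nearer to Adamtsl5 (0.488). Tet1 was nearest to Dst (1.01), with 12 and 24 CHD4 peaks in the ESC replicates, and Tet2 to Tbl1xr1 (0.719). The nearest genes of the others were Cfb for Uhrf1 (0.765), Rod1 for Dnmt3a (0.561), Gm5218 for Dnmt3b (0.853) and Pdgfrl for Dnmt3l (0.621).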

How the data were processed

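Peak lists of 9 of the 36 samples were used. The other 27 (inputs, histone marks, spike-in MBD3 and CHD4, and Zfp296 knockout clones) were not analysed here. The authors aligned reads to mm9 with BWA, kept unique reads of sufficient quality, removed duplicates and called peaks in each sample with MACS2 2.0 against input of the same cell line. Read totals per sample are unknown from the lists, although peak names of 7 lists mention an equal number of reads. Peak names carry a threshold of 0.001, or 0.0001 for SIN3A without spike-in. The deposited value per peak is on a −log10 scale, and whether p-values or q-values underlie it is not given in the sources used here.

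Peaks were assigned to genes by midpoint. Of 29 chromosomes and contigs, 7 had no reference length and 0 of the others carried a peak beyond its end. Regions were merged at an overlap of at least 1 bp. A peak was placed in a TSS window of 1 kb upstream to 5 kb downstream, otherwise an exon, an intron or between genes. Distances run from the annotated 5′ end of the gene along its strand. Counting was tested on simulated data. The genes and lists were chosen with earlier results of these data known. A gene of the list of related genes is not reported here. Named were all 8 genes, the 17 regions held by at least 4 lists, the peak with the highest value in each list and, of the regions in TSS windows, those the text describes. Other regions and the NPC peaks were named after their values were seen. Printed sequences followed a rule (strongest MBD3 peaks found in both ESC lists, strongest NPC CHD4 and ZFP296 peaks, TSS regions of most lists), and those of Uhrf1, Dnmt3l, the Tet2 start and the AP-1 string were added afterwards. The strongest NPC CHD4 peak reaches into a UTR and was not printed. Alternatives were windows of 10 and 100 kb, any overlap, values of at least 10, lists of equal size, single lists and a TSS window of 1 kb on each side. Analyses used Python 3.11.15, numpy 2.4.6, pandas 2.3.3, matplotlib 3.10.9, samtools 1.23.1 and pyfaidx 0.9.0.4.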

Additional observations from a re-analysis of the deposited data

How the results depend on the processing

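Shares of all genes follow each count in parentheses. Genes with ESC MBD3 numbered 5 with both lists required (12.8%), 6 without replicate 1 (33.1%) and 7 without replicate 2 (15.8%). For CHD4 both single-list counts were 8 (67.7% and 43.0%), which could not differ from the 8 found with both. Genes with NPC MBD3 and none in ESCs numbered 0 (6.81%), 2 without replicate 1 (7.53%) and 1 without replicate 2 (11.2%). Leaving a list out can only keep or raise each of these counts. Values of at least 10 left 3 genes with MBD3 in both ESC lists (4.01%) and 2 with GFP-ZFP296 (9.06%). Lists of equal size left 1 gene with CHD4 in both ESC lists (9.89%), 3 with NPC CHD4 (16.2%), 3 with GFP-ZFP296 (17.5%) and 2 with SIN3A in both preparations (16.2%). A 10 kb window left 3 genes with NPC MBD3 (7.33%), 4 with NPC CHD4 (35.2%) and 3 with GFP-ZFP296 (10.4%). Counting only peaks whose nearest start was that of the gene left 3 genes with NPC MBD3 (6.69%) and 2 with GFP-ZFP296 (8.99%). With a TSS window of 1 kb on each side, GFP-ZFP296 was found at 0 genes (2.68%). MBD3 in NPCs and not in ESCs was found at 1 gene with values of at least 10 (4.29%), with equal sizes (9.66%) and by nearest start (3.81%). CHD4 in both ESC lists and not in NPCs was found at 3 genes with a 10 kb window (8.96%), 2 with values of at least 10 (8.11%) and 2 by nearest start (8.24%), and the reverse at 1 gene with a 10 kb window (9.2%). The nearest start and all alternatives for these ESC and NPC states were chosen after seeing the data. The remaining alternatives for these counts stayed within 1.5 times, although the genes counted could change. With equal sizes, CHD4 in both ESC lists and not in NPCs was found at Tet1 in place of Dnmt3l (6.3%). Counts over the 32 related genes were not recomputed. Of the 72 counts per gene and list, 42 stayed within 1.5 times with a 10 kb window, 54 with 100 kb, 72 with any overlap, 26 with values of at least 10, 26 with equal sizes and 41 with the nearest start. No paired analysis was possible because the result comes from no test. Depth behind each peak is unknown, the NPC and ZFP296 lists are single, and list lengths differ, so a missing peak and a weaker signal cannot be told apart.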
